A study of Homo sapiens with 2 samples.

Results

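The Hippo-YAP genes described here are 10 genes listed by symbol: the kinases LATS1 and LATS2, the YAP-binding proteins PTPN14 and AMOTL2, the coactivators YAP1 and WWTR1, the DNA-binding factors TEAD1 and TEAD4, and the secreted target gene products CCN1 and CCN2 (older names CYR61 and CTGF). A named probe set was found for 9 of the 10, out of 17687 named genes in all, and the level of AMOTL2 was not analysed here. The data were microarray values from DLD-1, an established human colorectal cancer cell line. One culture had received the AllStars negative control siRNA (siControl) and the other the Hs_YY1_1 siRNA against the zinc finger transcription factor YY1 (siYY1), each at 5 nmol/L with Lipofectamine RNAiMAX, and total RNA was taken after 3 days. The knockdown rests on a single siRNA sequence, and the cells carried no other stated alteration. The comparison addressed which genes differ in level when YY1 is knocked down.

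Hippo signalling is a kinase cascade that limits tissue growth. The kinases STK3 and STK4 (MST2 and MST1), with the adaptor SAV1, activate LATS1 and LATS2, which with MOB1 proteins phosphorylate the coactivators YAP and TAZ (the product of WWTR1) and keep them out of the nucleus. When the cascade is quiet, YAP and TAZ enter the nucleus, bind TEAD factors and switch on genes such as CCN1, CCN2 and AMOTL2, and in the intestine this output is best known for its part in regeneration after injury and in tumour growth. Several of the targets restrain YAP in turn, among them LATS2, AMOTL2 and PTPN14.

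Each group was 1 array, so no difference here has a replicate error, an SD or a p-value, and each one sets a single culture beside another. The difference is siYY1 minus siControl on the log2 scale, where 1 stands for 2-fold. No probe set among the 17709 with a name stands for YY1, so the knockdown itself was not measured and the groups rest on their labels. A gene was compared when it was protein-coding and its higher value of the pair was at or above a brightness minimum of 7.498, which left 8750 genes. Of these, 7.92% were higher in siYY1 by 2-fold or more, 9.38% were lower by as much and 17.3% were past 2-fold either way, and the differences had an SD of 0.75 across genes. Genes that were higher made up 45.8% of those past 2-fold, and 33.4% in the values as deposited, whose median difference was -0.13 in place of -0.01. Of 10 epithelial markers 9 were above the brightness minimum. EPCAM was at 16.3 and 16.5 and KRT8 at 16.5 and 16.7 on the siControl and siYY1 arrays. The colorectal factor CDX2 was at 13.1 and 12.3. Of the other colorectal markers CDH17 was at 12.7 and 12.6, and VIL1 was at 7.54 and 7.03, under the minimum in siYY1. CDX1, LGALS4 and GPA33 were below that minimum on both arrays. So were 7 of 8 fibroblast markers, with list means of 4.94 in siControl and 5.15 in siYY1.

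The stretches of promoter that follow are shown because TEAD factors carry YAP and TAZ to DNA and YY1 is the protein targeted, so that the letters these factors are known to prefer can be set beside the measured differences. They come from RefSeq (GRCh38.p14), which gave windows of 250 bases before to 50 after the start for 7 of the 10 genes, some with more than 1 start, 10 windows in all; windows of CCN1, TEAD1 and TEAD4 were not used here. The TEAD motif searched was GGAATG on both strands (CATTCC on the other). The first pair are the whole 250 bases before the start, from chr1:214551603-214551852 on the minus strand for PTPN14 and from chr6:131951373-131951622 on the minus strand for CCN2, with TEAD matches in capitals.
PTPN14: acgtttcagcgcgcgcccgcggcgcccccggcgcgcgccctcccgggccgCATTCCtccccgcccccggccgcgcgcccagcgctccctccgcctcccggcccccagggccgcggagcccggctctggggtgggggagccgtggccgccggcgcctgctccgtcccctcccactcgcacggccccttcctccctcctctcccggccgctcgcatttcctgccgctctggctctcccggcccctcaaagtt
CCN2: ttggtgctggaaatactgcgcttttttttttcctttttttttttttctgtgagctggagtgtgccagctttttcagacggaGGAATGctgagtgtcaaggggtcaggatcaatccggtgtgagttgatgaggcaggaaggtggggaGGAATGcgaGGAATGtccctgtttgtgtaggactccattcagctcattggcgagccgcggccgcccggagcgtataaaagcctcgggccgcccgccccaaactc
PTPN14 had 1 match, beginning 200 bases before the start, and CCN2 had 3, beginning 169, 104 and 95 bases before it. The gene with 3 matches differed by 0.26 between the arrays and the gene with 1 match by 2.59. In all 35116 RefSeq windows of this length, 14.03% held at least 1 match and 0.128% held 3 or more. Among the 10 windows of the listed genes 5 held a match, those of PTPN14, CCN2, YAP1 and LATS2 and 1 of AMOTL2.

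The next 3 stretches of 30 bases show single matches in other members. YAP1 (chr11:102110273-102110302, plus strand) and LATS2 (chr13:21061560-21061589, minus strand) each hold the TEAD letters, before the start in YAP1 and in the first transcribed bases in LATS2. LATS1 (chr6:149718052-149718081, minus strand) holds AANATGGC, the letters searched for YY1 on both strands, beginning at base 37 of the transcribed part of 1 of its 2 windows.
YAP1: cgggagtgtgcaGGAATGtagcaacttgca
LATS2: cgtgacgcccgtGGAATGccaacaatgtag
LATS1: acactgagtggaaggcAAAATGGCggcggc
This was the only YY1 match among the 10 windows, against 6.58% of all windows, and the PTPN14 window held none. A match is only a run of letters, and binding was not measured.

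PTPN14 stood far from 0. This cytosolic tyrosine phosphatase with a FERM domain holds YAP outside the nucleus and assists LATS activation, and its gene is also a YAP target. Its value was 9.37 on the siControl array and 11.95 on the siYY1 array, a difference of 2.59 or 6.01-fold higher in siYY1. In the values as deposited it was 9.43 and 11.90, a difference of 2.47. It was 3rd from the top of the 8750 genes by difference. The set was chosen by this value, as PTPN14 was known to be among the highest genes of the same comparison, so the values of the members are given as a description. Both values were above the brightness minimum, so the size does not rest on a dim array. In RNA from a whole culture, more cells with a transcript and more of it per cell cannot be told apart.

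Its relatives stayed near 0. Among the 5 tyrosine phosphatases with a FERM domain, all compared, PTPN14 alone was past 2-fold. PTPN21, the closest relative, measured 7.74 in siControl against 7.56 in siYY1, a difference of -0.18. PTPN13 differed by 0.36, PTPN3 by 0.28 and PTPN4 by 0.06, the last below 0 at -0.07 in the values as deposited. The 4 genes that lay nearest to PTPN14 in the plane of both log2 values were SIPA1L3, at a distance of 0.40, CC2D1A at 0.40, NPIPA3 at 0.42 and MAN2A2 at 0.42. The likeness is over 2 arrays only, and NPIPA3 belongs to a family of near-identical copies that can share signal.

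Genes with wide genomic spans were higher on the siYY1 array as a class. In the 10% of compared genes with the widest spans, which hold PTPN14 and TEAD1, the median difference was 0.22 and 17.03% were higher by 2-fold or more. In the narrowest 10%, which hold CCN1 and CCN2, the median was 0.0023 and 4.0% were. Of the pathway genes past 2-fold, the widest class also held DLG5, PATJ, DOCK5 and CRIM1 on the higher side and TNIK and VGLL4 on the lower. In the next widest 10% the median was 0.13 and 12.34% were higher by 2-fold or more. That class held FAT1 on the higher side and STK4, PALS1 and STRN on the lower. The part of gene span in the values of these genes was not tested.

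**Figure D1:**
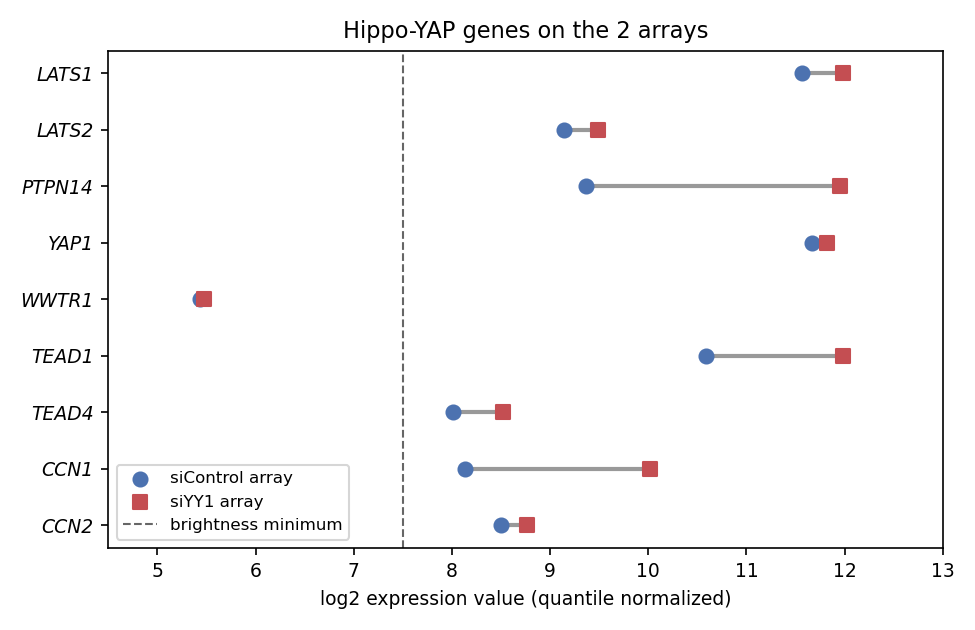
Log2 expression values (horizontal axis, quantile normalized) of the 9 Hippo-YAP genes with a named probe set; circles are the siControl array, squares the siYY1 array, the grey bar joins them and the dashed line is the brightness minimum of 7.498. The bars of PTPN14, CCN1 and TEAD1 are the long ones, and WWTR1 lies below the minimum on both arrays.

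The LATS kinases, the last step of the cascade, differed little. LATS1 measured 11.56 in siControl against 11.98 in siYY1, a difference of 0.42. LATS2, a YAP target as well as a YAP kinase, was at 9.14 and 9.49, a difference of 0.35. Both were higher in siYY1 under the 4 scalings tried and below 2-fold in each. Of the genes compared, 73.6% had a lower difference than LATS1 and 70.1% a lower one than LATS2.

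Of the 7 core kinases and adaptors, all compared, 1 was lower by 2-fold or more and none higher by as much. The lower one was STK4, the kinase MST1, at 10.70 in siControl against 9.47 in siYY1, a difference of -1.23 or 2.34-fold lower. Its paralog STK3 lay on the other side of 0, at 11.43 and 11.98, a difference of 0.55. The adaptor SAV1 differed by -0.08 and MOB1A by -0.26, while MOB1B was at 0.11 and at -0.01 in the values as deposited. Over all genes compared 9.38% were lower and 7.92% higher by 2-fold or more, so 1 of 7 is near the background. The list median was 0.11 against -0.01 over all genes compared, and in the values as deposited -0.01 against -0.13.

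The coactivators themselves hardly differed. YAP1 measured 11.67 in siControl against 11.82 in siYY1, a difference of 0.15 that was 0.01 in the values as deposited. WWTR1, which encodes TAZ, was dim on both arrays at 5.43 and 5.47. Its difference of 0.04 is one between values under the brightness minimum, where background can hide a difference of either sign. Of the markers of fibroblasts, endothelium and leukocytes, 18 were under that minimum, the highest at 6.85. They were picked by the minimum, so 6.85 does not measure the array background. The other markers of those lists reached the minimum: COL1A2 at 8.62 in siControl and 8.84 in siYY1, ERG at 7.49 and 8.13, and CD14 at 7.67 and 6.95. The differences of those 18 markers ran from -0.65 for CLDN5 to 1.10 for COL1A1, and 1 was past 2-fold.

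Of the 4 TEAD genes, all compared, 3 were higher in siYY1 by 2-fold or more, beside 7.92% of all genes compared, and TEAD4 was not. TEAD1 measured 10.59 in siControl against 11.98 in siYY1, a difference of 1.39 or 2.62-fold higher. TEAD4 was at 8.01 and 8.52, a difference of 0.51 that stayed below 2-fold; 77.5% of the genes compared had a lower one. The paralogs outside the list differed by more: TEAD2 was at 7.66 and 9.27, a difference of 1.61. TEAD3 was at 7.24 and 8.996, a difference of 1.76 or 3.38-fold higher, and it reached the brightness minimum on the siYY1 array only. TEAD2 and TEAD3 have short genomic spans. Their class of 10% of the genes had a median difference of -0.10, and 5.26% of it were higher by 2-fold or more. The part of gene span in the values of the TEAD genes was not tested. In the values as deposited TEAD1, TEAD2 and TEAD3 remained past 2-fold at 1.28, 1.54 and 1.71.

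Genes of the VGLL family, cofactors that bind TEAD on the surface YAP uses, were split. VGLL4, which competes with YAP for TEAD and dampens its output, measured 9.54 in siControl against 8.29 in siYY1, a difference of -1.25 or 2.38-fold lower. VGLL3 was at 8.16 and 9.04, a difference of 0.88 and below 2-fold. VGLL1 and VGLL2 were below the brightness minimum on both arrays. Over the 10 coactivator, TEAD and VGLL genes, all named, 3 were higher by 2-fold or more and 1 was lower by as much, with a median of 0.33. Without a brightness minimum the median over 17249 protein-coding genes was -0.0047, and 10.3% were past 2-fold, 4.61% on the higher side and 5.67% on the lower.

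**Figure D2:**
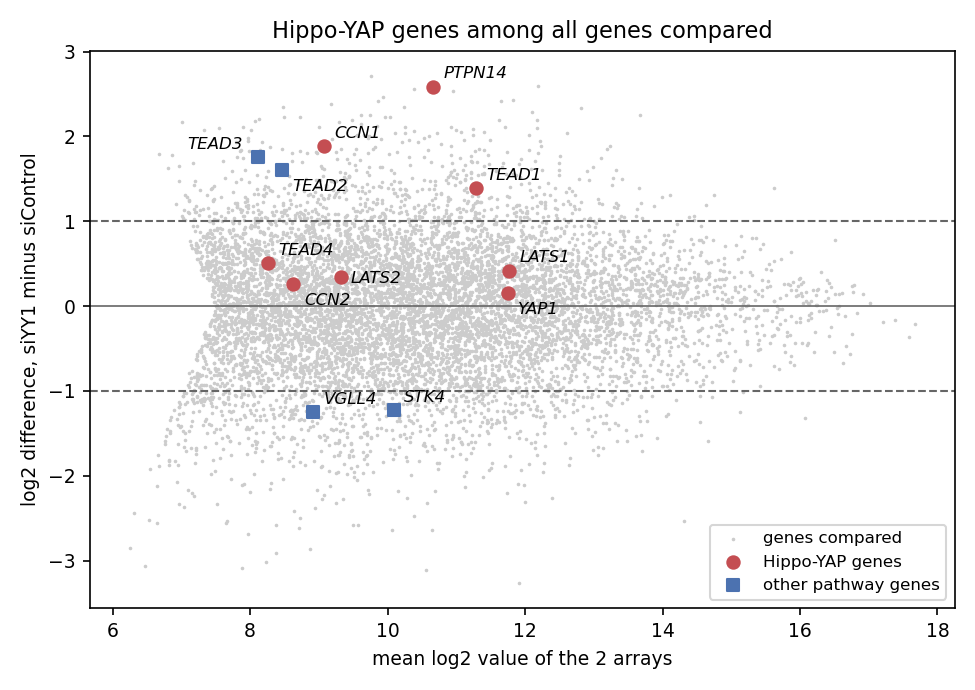
Log2 difference, siYY1 minus siControl (vertical axis), against the mean log2 value of the arrays (horizontal axis) for the 8750 genes compared in grey, with 8 Hippo-YAP genes as circles and 4 other pathway genes as squares; dashed lines mark 2-fold. PTPN14 at 2.59 lies at the upper edge of the cloud, CCN1, TEAD1, TEAD2 and TEAD3 lie above the upper line, and VGLL4 and STK4 lie below the lower one.

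The secreted CCN proteins CCN1 and CCN2, matricellular proteins used as standard readouts of YAP and TEAD activity, differed from each other. CCN1 measured 8.13 in siControl against 10.02 in siYY1, a difference of 1.88 or 3.69-fold higher. CCN2 was at 8.50 and 8.76, a difference of 0.26 or 1.20-fold. CCN1 was 75th from the top of the genes compared, while 34.8% of them had a difference at or above that of CCN2. The other CCN genes were below the brightness minimum on both arrays: CCN3 differed by -0.74, CCN4 by 0.21, CCN5 by 0.60 and CCN6 by 0.996, just under 2-fold, and CCN6 was past 2-fold at 1.14 in the values as deposited.

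Of the 8 listed genes that could be compared, PTPN14, CCN1 and TEAD1 were higher by 2-fold or more and none was lower by as much, beside 7.92% and 9.38% of all genes compared. The same 3 were past 2-fold in the values as deposited, beside 6.13% of all genes on the higher side, 12.2% on the lower and 18.3% in all. All 8 had a difference above 0, beside 49.5% of all genes compared, or 43.2% in the values as deposited. Their median was 0.46, or 0.42 with WWTR1 included. The set was proposed with these values known, so nothing is read from the counts, the signs or the median.

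A wider list of 22 YAP and TAZ targets, written from general knowledge, held 19 named genes, of which 4 are listed members. Over the 19, 7 were higher in siYY1 by 2-fold or more, none was lower by as much and 13 were above 0, with a median of 0.35. Leaving out the members, 5 of 15 were on the higher side of 2-fold and none on the lower, with a median of 0.13, beside 4.61% and 5.67% of all protein-coding genes. ARHGEF17, an exchange factor for RhoA, measured 6.98 in siControl against 9.06 in siYY1, a difference of 2.08, and reached the brightness minimum on the siYY1 array only. NT5E, the ectonucleotidase CD73 that makes adenosine outside the cell, was at 12.52 and 14.03, a difference of 1.51. DOCK5, an exchange factor for Rac, was at 11.50 and 12.91, a difference of 1.41. CRIM1, a membrane protein that binds BMP ligands, was at 11.95 and 12.98, a difference of 1.04 that was 0.92, below 2-fold, in the values as deposited. ANKRD1, an ankyrin repeat protein much used as a YAP readout, was at 4.81 and 6.498, a difference of 1.69 between values that were both under the brightness minimum. The 6 targets below 0 stayed short of 2-fold. NUAK2, a kinase induced by YAP, differed by -0.55 and MYOF, a membrane repair protein, by -0.41, and RBMS3, AXL, IGFBP3 and FOXF2 were under the brightness minimum on both arrays, the farthest being RBMS3 at -0.77.

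Regulators at the membrane and cell junctions had members past 2-fold on both sides. Of 27 genes 24 were named, and of the 18 compared 4 were past 2-fold on the higher side and 1 on the lower, beside 7.92% and 9.38% of all genes compared. The 4 include PTPN14. The median was 0.55 over the 18, of which 2 reached the brightness minimum on the siYY1 array only, and 0.43 over all 24. In the values as deposited 3 of the 18 were past 2-fold on the higher side and 2 on the lower. The shares over all genes were then 6.13% and 12.2%. FAT1, a giant atypical cadherin that feeds into the cascade, measured 14.92 in siControl against 16.31 in siYY1, a difference of 1.39. DLG5, a polarity scaffold, was at 7.86 and 9.29, a difference of 1.43. Of the Crumbs complex, the scaffold PALS1 was at 11.09 and 9.60, a difference of -1.49 or 2.81-fold lower, while its partner PATJ was at 8.88 and 9.95, a difference of 1.07 that was 0.94 in the values as deposited. NF2, the tumour suppressor merlin, was at 9.84 and 9.73, a difference of -0.11. AMOTL1, a YAP-binding angiomotin, lay below the brightness minimum on both arrays, with a difference of 0.27.

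Upstream kinases that can act on LATS in place of MST, and kinases related to LATS, lay on both sides of 0. MINK1, of the MAP4K family, measured 7.95 in siControl against 10.05 in siYY1, a difference of 2.11 or 4.31-fold higher. TNIK, of the same family, was at 7.93 and 6.22, a difference of -1.71. Its size is uncertain because the siYY1 value was below the brightness minimum. STK38, a kinase related to LATS, was at 10.28 and 11.30, a difference of 1.03 and of 0.88, below 2-fold, in the values as deposited. Of the 9 named genes in this list 2 were past 2-fold on the higher side and 1 on the lower. The shares were 4.61% and 5.67% of all protein-coding genes without a brightness minimum. Those counts were the same over the 8 compared, beside 7.92% and 9.38% of all genes compared. In the values as deposited they were 1 and 1 of the 8, beside 6.13% and 12.2%.

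STRIPAK, a phosphatase complex that switches MST kinases off, had 17 named genes, all compared, with 3 past 2-fold on the lower side and 1 on the higher, beside 9.38% and 7.92% of all genes compared. The catalytic subunit PPP2CA measured 14.72 in siControl against 13.44 in siYY1, a difference of -1.27. The scaffold subunit PPP2R1A was at 13.16 and 12.04, a difference of -1.13, and the striatin STRN at 12.41 and 11.39, a difference of -1.02. Another striatin, STRN4, was on the other side at 8.24 and 9.72, a difference of 1.48. PPP2CA and PPP2R1A belong to phosphatase PP2A, which acts in many complexes besides this one. The median of 0.06 became -0.06 in the values as deposited, where the median over all genes was -0.13.

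None of the 14 genes for the turnover and cytoplasmic retention of YAP and TAZ, all compared, was past 2-fold. The share over all genes compared was 17.3%, but it was smaller among bright genes. CSNK1D, SKP1, YWHAB, YWHAE, YWHAH, YWHAQ, YWHAZ and SFN were among the brightest 10% of genes compared. Of that 10%, 3.2% were higher by 2-fold or more and 4.0% lower by as much. The turnover list holds the SCF ubiquitin ligase subunits, casein kinases and 14-3-3 proteins. The list's differences ran from -0.80 for SFN, the epithelial 14-3-3 protein sigma, to 0.47 for the casein kinase gene CSNK1E. Its median of 0.05 became -0.07 in the values as deposited, again beside -0.13 over all genes.

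**Figure D3:**
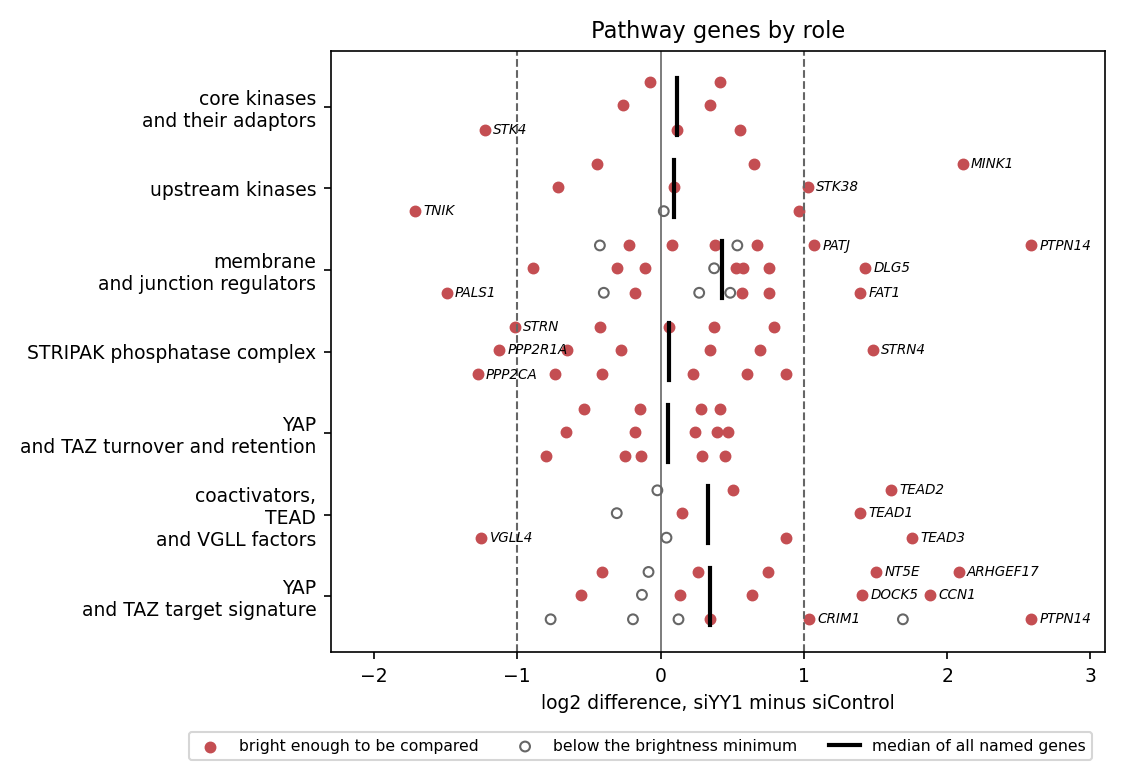
Log2 difference, siYY1 minus siControl (horizontal axis), of the named genes in 7 role lists of the pathway (rows); filled points were bright enough to be compared, open points were not, bars are medians over all named genes and dashed lines mark 2-fold. Points past 2-fold lie on both sides in 4 rows, all on the higher side in the target row, on the lower side only in the core kinase row, and nowhere in the turnover row.

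Over all 10 lists, which hold 105 named genes, 85 were compared; 15 were higher in siYY1 by 2-fold or more and 7 lower by as much, beside 7.92% and 9.38% of all genes compared. The median was 0.29, and 4 of the 85, the called genes TEAD3 and ARHGEF17 among them, reached the brightness minimum on the siYY1 array only. Without the listed members the counts were 12 and 7 of 77, or 9 and 8 in the values as deposited, where the shares over all genes were 6.13% and 12.2%. The members did not change their side of 2-fold with the scaling, as the plot of scalings shows.

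**Figure D4:**
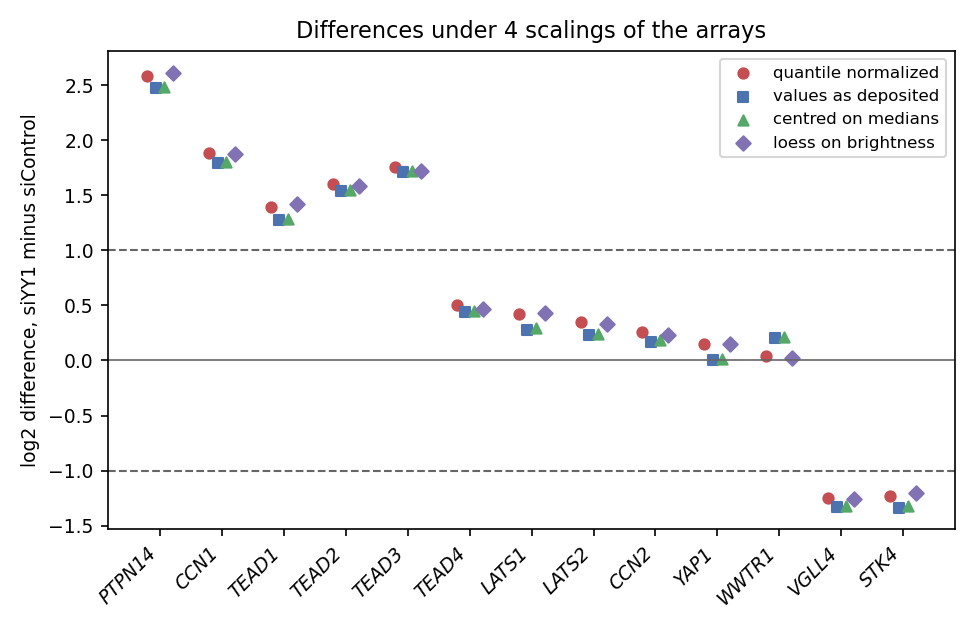
Log2 difference, siYY1 minus siControl (vertical axis), of 9 Hippo-YAP genes and 4 other pathway genes (horizontal axis) under 4 scalings of the pair of arrays; dashed lines mark 2-fold. PTPN14, CCN1, TEAD1, TEAD2 and TEAD3 lie above the upper line, and VGLL4 and STK4 below the lower one, under each scaling.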

How the data were processed

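For each array the authors deposited a single processed value per probe set, made from biotin-labelled sense cDNA on a whole-transcript GeneChip, per the labels' protocols. Their software and normalization were not stated in the labels used here. Those deposited numbers ran from 2.51 to 17.9 and were read as log2. The 25th, 50th and 75th percentiles of the arrays differed by 0.18, 0.07 and -0.13, more than the limit of 0.05, so the pair was quantile normalized. Gene symbols came from the platform annotation, updated through the gene ID to RefSeq (GRCh38.p14); 3739 probe sets had no name and were left out. Probe sets of 1 gene were averaged, and each pathway gene had 1. No test was possible with 1 array per group, and the number of arrays limits the precision. Genes were counted at 2-fold. The members and lists were chosen with earlier results of these data known. Genes named were all members, up to 6 past 2-fold per list the members' paralogs and partners, and the 4 genes nearest PTPN14; VGLL1, VGLL2, VGLL3, NUAK2, MYOF, RBMS3, AXL, IGFBP3, FOXF2, SFN, CSNK1E and, for the motif, PPP2R1B, YWHAE, MAP4K4, RBX1, SLMAP, DLG1 and WWC3 were added after their values were seen. Alternatives were other scalings (none, median centring, or loess on brightness), other brightness minimums, the brightest probe set of a gene, 1.5-fold and 3-fold, and all gene types; gene span was added after seeing the data. The computation was tested on simulated data. Python 3.11.15, numpy 2.4.6, pandas 2.3.3 and statsmodels 0.14.6 were used.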

Additional observations from a re-analysis of the deposited data

How the results depend on the processing

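The count of listed genes past 2-fold was 3 under the 4 scalings, with the brightest probe set, with a brightness minimum at the 25th percentile or none, at 1.5-fold and with all gene types. It was 2 at the 75th percentile of brightness, where CCN1 was no longer compared, and 2 at 3-fold, where TEAD1 was not past the threshold. The count over all genes, 1514 at 2-fold, was 3609 at 1.5-fold, 378 at 3-fold and 747 at the 75th percentile, where fewer genes are compared. The count over the pathway lists, 22 at 2-fold, was 40 at 1.5-fold, 7 at 3-fold and 12 at the 75th percentile. Of 43 named genes, 39 kept their side of 2-fold in the values as deposited, 3 (STK38, PATJ and CRIM1) fell below it and CCN6 passed it, and 2 (MOB1B and PTPN4) changed sign. The comparison by protein length was not run, as no protein lengths were used here. No paired analysis was possible because each group held 1 array.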

Other observations

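The promoter motifs were also set against the differences over all genes compared that had a RefSeq window. For the YY1 letters, the 1036 genes with a match had a median difference of 0.01, with 7.24% past 2-fold on the higher side and 10.5% on the lower. The 6351 genes without a match had a median of -0.02, with 7.64% and 9.57%. For the TEAD letters, the 1048 genes with a match had a median of 0.0007, with 7.35% and 9.83%, and the 6339 without had a median of -0.02, with 7.62% and 9.69%. Within the pathway lists 11 compared genes held the YY1 letters, of which 7 had a difference above 0. None was higher by 2-fold or more, and 2, PPP2CA at -1.27 and PPP2R1A at -1.13, were lower by as much. The others ran from YWHAE at -0.53 and PPP2R1B at -0.42 through PTPN4 at 0.06, MAP4K4 at 0.10, RBX1 at 0.29, SLMAP at 0.35, DLG1 at 0.38 and LATS1 at 0.42 to WWC3 at 0.67. The TEAD letters were held by 13 compared genes of the pathway lists, of which 10 had a difference above 0. Of all 85 compared pathway genes 55 were above 0, beside 49.5% of all genes compared. Of the 13, only PTPN14 was higher by 2-fold or more and none was lower by as much, beside 7.92% and 9.38% of all genes compared. The 13 include the members PTPN14, YAP1, LATS2 and CCN2, chosen with their values known, so nothing is read from these counts. In the windows of all pathway genes 10.4% held the YY1 letters, against 6.58% of all windows, and 16.4% held the TEAD letters, against 14.03%.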
